A study of Mus musculus with 12 samples.

Results

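Lmo1, Ebf3 and Dmbx1 are 3 mouse genes for regulators of transcription that shared an unusual order of levels across MOC2 cultures. They were selected by symbol, because their counts were high in the libraries labelled EV-proficient without drug and EV-deficient with paclitaxel, and low in the other 6. They are 3 of the 55421 genes in the deposited table, and all 3 were among the 18108 genes with enough reads to be tested. MOC2 is a mouse oral squamous cell carcinoma line, and paclitaxel is a drug that stabilises microtubules and was used here to bring the cells into senescence. EVs are extracellular vesicles, the membrane particles that cells release. The 12 libraries came from 4 groups of 3 cultures. Cells of the derivative MOC2-25, labelled EV-proficient, and of the derivative MOC2-27, labelled EV-deficient, were each grown with the solvent DMSO or with 600 nM paclitaxel for 48 h. The study describes a genetic block of vesicle release, but the labels name neither the gene altered nor whether a derivative is a clone, so EV status and derivative cannot be told apart. The labels number the cultures of a group without saying whether they were grown on separate occasions, so an error given here measures the spread between those cultures.

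The 3 proteins act in different ways. LMO1 is a LIM-only protein that does not bind DNA itself. It bridges the adaptor LDB1 to DNA-binding partners such as GATA factors and the basic helix-loop-helix proteins TAL1, TCF3 and TCF12, and it is best known as an oncogene of T-cell leukaemia and a risk gene of neuroblastoma. EBF3 belongs to the early B-cell factor family, whose members bind DNA as dimers, and it is known for its part in the differentiation of neurons. The zinc-finger proteins ZFP423 and ZFP521 bind EBF proteins and modify their activity. DMBX1 is a paired-like homeobox protein of the developing midbrain and can pair with the related OTX proteins. None of the 3 is a defining gene of squamous epithelium.

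The genes lie at separate places in the genome. In the mouse build GRCm38, Lmo1 (ENSMUSG00000036111) spans chr7:109138572-109175207, Ebf3 (ENSMUSG00000010476) spans chr7:137193673-137314445, and Dmbx1 (ENSMUSG00000028707) spans chr4:115915119-115939926, all on the minus strand. Lmo1 and Ebf3 share chromosome 7 but are 28 Mb apart. The 250 bases before the start site of each gene are shown because the 3 genes moved together and the promoter is where a shared sequence feature could be looked for. They are RefSeq sequences of GRCm38.p6 at chr7:109175208-109175457, chr7:137314446-137314695 and chr4:115939927-115940176, read 5′ to 3′ on the minus strand, with each CpG dinucleotide in capitals. For Lmo1 the reference table lists 2 start sites, and the window belongs to the outermost.
Lmo1: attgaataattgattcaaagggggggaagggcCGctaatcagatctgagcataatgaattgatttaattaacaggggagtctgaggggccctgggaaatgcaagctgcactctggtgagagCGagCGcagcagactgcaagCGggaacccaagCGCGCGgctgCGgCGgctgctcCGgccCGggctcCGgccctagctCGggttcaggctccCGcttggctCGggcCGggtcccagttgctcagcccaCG
Ebf3: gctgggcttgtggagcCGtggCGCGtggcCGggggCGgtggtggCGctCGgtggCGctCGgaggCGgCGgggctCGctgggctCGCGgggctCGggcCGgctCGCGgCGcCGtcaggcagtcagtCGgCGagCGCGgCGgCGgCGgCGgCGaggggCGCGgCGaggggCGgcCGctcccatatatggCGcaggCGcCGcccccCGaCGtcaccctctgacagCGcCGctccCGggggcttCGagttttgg
Dmbx1: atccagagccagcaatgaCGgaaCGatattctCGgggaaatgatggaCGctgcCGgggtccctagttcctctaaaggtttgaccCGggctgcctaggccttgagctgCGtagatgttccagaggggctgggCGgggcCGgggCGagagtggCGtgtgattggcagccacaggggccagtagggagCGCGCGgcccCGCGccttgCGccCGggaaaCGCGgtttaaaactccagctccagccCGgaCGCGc

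All 3 windows were rich in GC and CpG. The Ebf3 window had a GC content of 80% with 43 CpG dinucleotides, more CpG than 99.3% of the 32536 windows of the same length in the reference. The Dmbx1 window had 65.2% GC and 23 CpG, and that of Lmo1 61.2% GC and 17 CpG. The median window had 52.4% GC and 6 CpG.

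A search of both strands for 6 letter patterns found none that the windows had in common. The patterns were the E-box CANNTG, the EBF pattern (TCCC and GGGA with any 2 bases between), the homeobox core TAAT, the longer homeobox pattern TAATCC, the GATA pattern GATAA and the TATA box TATAAA. They occur in 66.2%, 0.787%, 54.8%, 6.25%, 22.5% and 12.3% of all windows, in that order. The Lmo1 window held 5 matches to TAAT, a number that 5.51% of all windows reach. The first letters of these matches lay at -244, -215, -199, -186 and -184 from the start site, and the last 2 overlap. It also held 1 E-box, at -17. In the windows of Ebf3 and Dmbx1 these letters were not found. A match of letters does not show that a protein binds there.

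The libraries held between 23263472 counts (EV-proficient paclitaxel 3) and 62955757 counts (EV-deficient DMSO 1). Levels are given in CPM, the usual count unit relative to library size, with library sizes scaled by the trimmed mean of M values, and 3 counts, taken as the limit of detection, correspond to 0.0492 to 0.121 CPM. The mitochondrial share of counts was 0.55% to 0.729% in the DMSO libraries, 0.846% to 0.907% in EV-proficient and 1.07% to 1.45% in EV-deficient paclitaxel libraries. Of 6 epithelial markers, Krt8, Krt18, Epcam, Cdh1 and Krt14 were abundant and Krt5 reached at most 8 counts. Their sum was 4873 to 5488 CPM under DMSO and 3019 to 3701 CPM under paclitaxel. Sox10 and Foxd3, defining genes of neural crest, reached at most 4 counts and 0 counts, and the lymphocyte gene Cd3e at most 2 counts, while the macrophage marker Cd68, also a lysosomal gene, rose with paclitaxel from a mean of 6.47 to 30.1 CPM in EV-proficient and from 7.92 to 29.96 CPM in EV-deficient cultures.

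The authors added rows for 2 sequences that are not mouse genes, gfp and dngfr. The name dngfr is commonly used for a truncated nerve growth factor receptor that serves as a surface tag, and the labels do not say which derivative carries either sequence. The gfp row was at 0 counts in all 12 libraries. The dngfr row had 5.73, 9.07 and 12.2 CPM in EV-proficient DMSO, 1.89, 2.00 and 2.54 in EV-deficient DMSO, 2.47, 3.50 and 3.76 in EV-proficient paclitaxel, and 10.7, 9.63 and 12.4 in EV-deficient paclitaxel libraries. It was therefore high in the same 6 libraries as Lmo1, Ebf3 and Dmbx1, with 5.73 CPM in the lowest of those 6 and 3.76 CPM in the highest of the other 6. An exchange of the 2 derivatives among the paclitaxel cultures and an opposite response of the derivatives to the drug cannot be told apart with these labels. Differences are given with the labels as deposited. For the members and several other genes the mean effect of paclitaxel over both EV labels is added, which stays the same if the paclitaxel groups trade labels.

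Lmo1 had the highest level of the 3 genes. It had 24.3, 27.3 and 28.6 CPM in the EV-proficient DMSO libraries and 19.4, 20.7 and 17.8 CPM in the EV-deficient paclitaxel libraries. In the EV-deficient DMSO libraries it had 1.95, 2.96 and 2.35 CPM, and in the EV-proficient paclitaxel libraries 2.19, 2.78 and 2.06 CPM. The 6 high libraries thus lay far above the 6 low ones, and the lowest of the high was 5.995 times the highest of the low. Within the high libraries the order was also complete, since all 3 EV-deficient paclitaxel values (19.3 ± 1.47 CPM, SD, n = 3) were below all 3 EV-proficient DMSO values (26.8 ± 2.19 CPM, SD, n = 3). The low groups, with 2.42 ± 0.512 CPM for EV-deficient DMSO and 2.35 ± 0.380 CPM for EV-proficient paclitaxel (SD, n = 3 each), overlapped.

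Ebf3 showed the same order at a lower level. The EV-proficient DMSO libraries had 11.4, 9.57 and 10.9 CPM and the EV-deficient paclitaxel libraries 9.54, 10.8 and 9.07 CPM. The EV-deficient DMSO libraries had 0.946, 1.19 and 0.921 CPM. Here the high groups overlapped, at 10.6 ± 0.929 and 9.80 ± 0.890 CPM (SD, n = 3 each). The EV-proficient paclitaxel libraries were the least uniform, with 1.13, 0.580 and 2.31 CPM from 57, 33 and 57 counts, and their mean of 1.34 ± 0.882 CPM did not differ from that of EV-deficient DMSO (1.02 ± 0.148 CPM) beyond this spread. The highest of those 3 values came from the library with the fewest counts in all, and the part of depth in it was not tested. Even so, the lowest high library had 3.93 times the level of the highest low library.

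Dmbx1 completed the set. Its values were 9.14, 10.5 and 9.45 CPM in EV-proficient DMSO and 7.68, 10.3 and 9.86 CPM in EV-deficient paclitaxel, groups that overlapped at means of 9.69 ± 0.704 and 9.29 ± 1.42 CPM (SD, n = 3 each). The low groups, with 1.43, 1.25 and 1.51 CPM for EV-deficient DMSO and 1.94, 1.55 and 1.01 CPM for EV-proficient paclitaxel, overlapped too. Their means were 1.40 ± 0.134 and 1.498 ± 0.465 CPM. The lowest high library had 3.96 times the level of the highest low library.

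**Figure D1:**
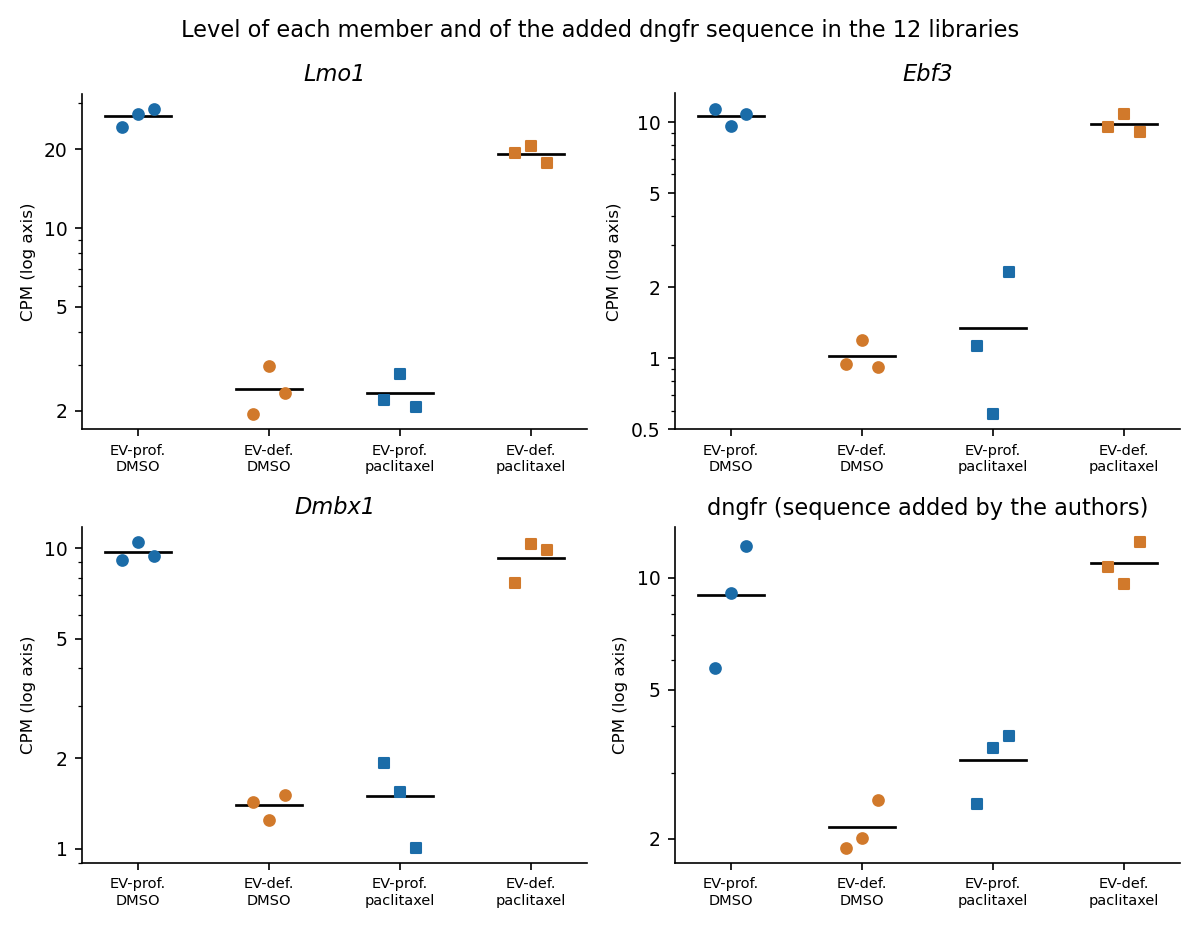
Level of Lmo1, Ebf3, Dmbx1 and the added dngfr sequence in CPM (log axis) in each of the 12 libraries by group; points are libraries (circles DMSO, squares paclitaxel, blue EV-proficient, orange EV-deficient) and lines are group means of 3. In every panel the EV-proficient DMSO and EV-deficient paclitaxel points lie above all others, with the narrowest gap for dngfr, between 5.73 and 3.76 CPM.

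The longer a transcript, the more reads it yields, so the genes were compared with each other per kilobase of exon. On that scale Lmo1 had 17.2 ± 1.41 CPM per kb in EV-proficient DMSO, against 1.66 ± 0.120 for Dmbx1 and 1.15 ± 0.101 for Ebf3 (SD, n = 3 each). In the EV-deficient DMSO group the levels were 1.56 ± 0.330 for Lmo1, 0.239 ± 0.0228 for Dmbx1 and 0.110 ± 0.0160 for Ebf3. The low level of Lmo1 per kilobase was therefore near the high levels of the other genes. Antisense genes overlap Lmo1 (Gm44781) and Ebf3 (Gm45278 and Gm10578), and with 9, 10 and 2 counts in their highest library they were far below the members, although the sources used here do not say whether strand was used in counting. No annotated gene overlaps Dmbx1.

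Between treatments and labels the 3 genes differed by several-fold in every contrast, as the selection required, so the sizes are given without a test. With paclitaxel in EV-proficient cells the log2 difference was -3.49 ± 0.15 for Lmo1, -3.13 ± 0.27 for Ebf3 and -2.64 ± 0.19 for Dmbx1 (edgeR estimate ± SE, here and below). With paclitaxel in EV-deficient cells it was 3.00 ± 0.14, 3.26 ± 0.27 and 2.73 ± 0.19 for the same genes in turn. EV-deficient against EV-proficient cells differed by -3.47 ± 0.14, -3.38 ± 0.27 and -2.79 ± 0.19 under DMSO. Under paclitaxel the same contrast was 3.01 ± 0.15, 3.02 ± 0.27 and 2.58 ± 0.19. Contrasts that share a group share its libraries, so these values are not independent of each other. The estimate of Ebf3 leaned on the uneven EV-proficient paclitaxel group, and without replicate 3 of that group its difference with paclitaxel in EV-proficient cells was -3.69 and that between labels under paclitaxel 3.52.

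The interaction, the log2 effect of paclitaxel in EV-deficient minus that in EV-proficient cells, was 6.48 ± 0.20 for Lmo1, 6.40 ± 0.38 for Ebf3 and 5.37 ± 0.27 for Dmbx1. These were the 24th, 27th and 60th highest of the 18108 interactions, a rank that the selection used. Averaged over both EV labels, the paclitaxel effect was -0.24 ± 0.10 for Lmo1, 0.07 ± 0.19 for Ebf3 and 0.04 ± 0.13 for Dmbx1, against a median of 0.07 over all genes tested. Upper-quartile scaling moved the 3 averages to -0.12, 0.19 and 0.17 and the median to 0.19. So the large differences within each label nearly cancelled between the labels. Relative to the median of all genes, the average of Lmo1 was the farthest of the 3 under both scalings, while its value itself was the nearest to 0 with upper-quartile scaling.

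**Figure D2:**
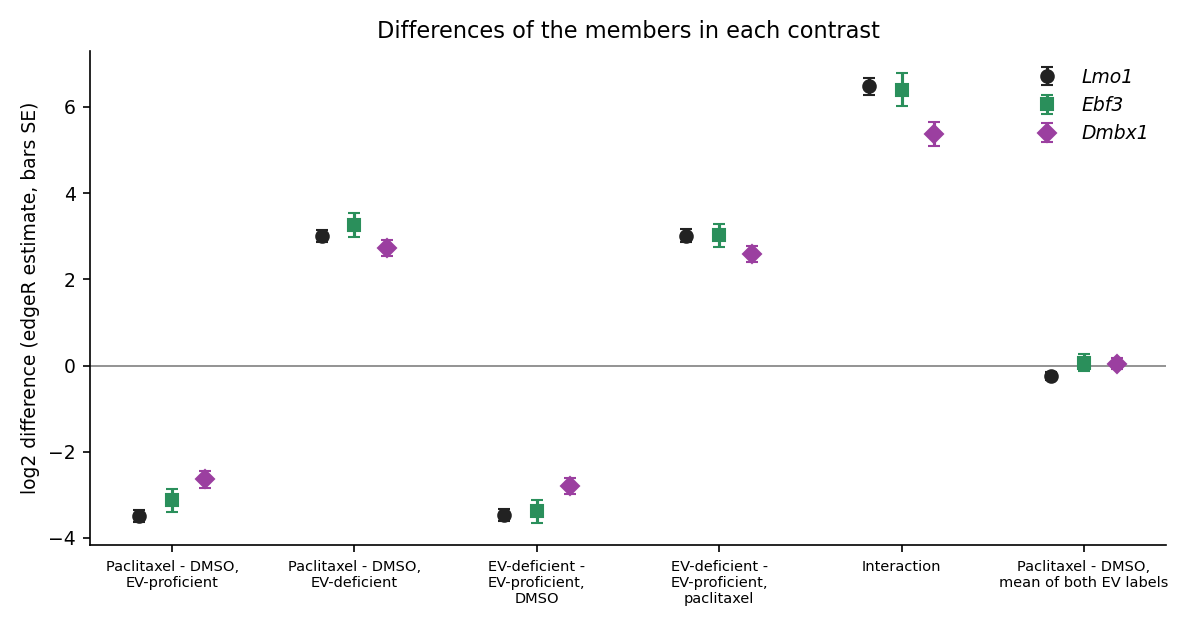
Estimated log2 differences of Lmo1, Ebf3 and Dmbx1 in 5 contrasts and in the paclitaxel effect averaged over both EV labels; points are edgeR estimates from all 12 libraries and bars are SE. The simple contrasts lie between 2.58 and 3.49 in size, with opposite signs for the 2 EV labels, and the averages lie near 0, between -0.24 and 0.07.

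The crossing order itself was not rare. Counting genes whose 6 libraries of EV-proficient DMSO and EV-deficient paclitaxel all lay above the other 6, 587 of the tested genes qualified (3.24%), the 3 members among them by choice, and 718 had the opposite order (3.97%). Among the 524 of the 587 with a mean of at least 1 CPM, Lmo1 had the second-widest gap between high and low libraries, Dmbx1 was 10th and Ebf3 11th. The widest gap was that of Hoxb5, a homeobox gene of trunk patterning, at 7.31-fold, and the genes next to Dmbx1 and Ebf3 in this order were Hoxb9 (4.19-fold) and Klf6 (3.85-fold). Members of the Hoxb cluster, picked out after their values were seen, followed the same order in 8 of 9 tested genes.

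Which genes were most like each member was ranked by Pearson's r of log2 CPM over the 12 libraries among 11759 genes with a mean of at least 1 CPM, fewer than the 12692 tested genes at that level because genes with a provisional symbol (Gm and a number, or ending in Rik) or none were left out. The 12 libraries fall into a high and a low cluster and share their depth, so r mostly measures how clean that split is and is given as a description. Lmo1 was most like Tmem171 (r = 0.993), a membrane protein gene, the zinc-finger factor gene Klf6 (0.988), the forkhead factor gene Foxf2 (0.987), Hoxb5 (0.984) and Reep1 (0.984), a gene that shapes the endoplasmic reticulum. The level of Klf6 was 570.9 ± 24.7 CPM in EV-proficient DMSO and 130.3 ± 2.14 CPM in EV-deficient DMSO libraries, and 115.2 ± 8.71 and 528.3 ± 25.5 CPM in the paclitaxel groups of the same labels in turn (SD, n = 3 each). Dmbx1 was most like Reep1 (0.987), Hoxb5 (0.983), the G-protein subunit gene Gnb4 (0.981), Fsd1l (0.979) and Lmo1 itself (0.979). Ebf3 was most like the magnesium transporter gene Slc41a2 (0.977), the G-protein subunit gene Gnai3 (0.977), Hoxb7 (0.976), Epdr1 (0.975) and the actin-nucleating subunit gene Arpc2 (0.973).

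Between members r was 0.979 for Lmo1 and Dmbx1, 0.951 for Lmo1 and Ebf3 and 0.932 for Ebf3 and Dmbx1. The most opposite gene for both Lmo1 and Dmbx1 was Klf4, a factor of epithelial differentiation, with r of -0.991 and -0.988. Klf4 had 32.2 ± 0.855 and 33.3 ± 1.42 CPM where the members were high, and 56.8 ± 2.22 and 54.5 ± 3.93 CPM where they were low (SD, n = 3 each). Bcl11a, a zinc-finger repressor of blood and brain development, came next for Lmo1 (-0.990) and was among the 3 most opposite for Dmbx1 (-0.980), and it had at most 0.0373 CPM in each of the 6 libraries where the members were high, against 1.79 to 2.59 CPM in the others. The remaining opposite genes were Peg10 for Lmo1 (-0.986), Plac8 for Dmbx1 (-0.982), and Cand2 (-0.984), Ier5 (-0.981) and Extl3 (-0.978) for Ebf3.

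Spread among replicates was not used in the selection, and no pair of members passed a test for shared variation within groups. With each group mean removed, r over the 12 libraries was -0.36 for Lmo1 and Ebf3, 0.07 for Lmo1 and Dmbx1 and -0.60 for Ebf3 and Dmbx1. The two-sided exact permutation p over 1296 arrangements within groups was 0.503, 0.904 and 0.367 for these 3 pairs, and 0.755, 0.904 and 0.755 after Benjamini-Hochberg adjustment. Spearman's rho was -0.06, 0.13 and -0.44, with exact permutation p of 0.875, 0.736 and 0.269 and adjusted values of 0.875, 0.875 and 0.808. Without the 2 libraries in which the first gene of a pair deviated most from its median, r was -0.71, 0.29 and -0.32. Left out were EV-deficient DMSO 1 and 2 for the pairs with Lmo1, and EV-proficient paclitaxel 2 and 3 for Ebf3 and Dmbx1. The value of -0.71 for Lmo1 and Ebf3 therefore still holds the libraries in which Ebf3 deviated most. The value for Ebf3 and Dmbx1 rested on EV-proficient paclitaxel replicate 3, where Ebf3 was 0.97 above and Dmbx1 0.50 below its group mean (log2), and without it r was 0.21. The SD within groups was 0.20 for Lmo1, 0.27 for Dmbx1 and 0.50 for Ebf3 on the log2 scale, and 98.2% of the 1000 genes nearest in level to Ebf3 had a lower SD.

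The relatives and partners of the 3 proteins were then taken from 5 lists, of LMO relatives and LDB1-complex partners, EBF relatives and cofactors, paired-like homeobox genes, neural regulators and squamous regulators. They hold 103 genes and none of the members. Of these, 102 were found in the table by symbol and 50 had enough reads to be tested. Genes past an adjusted p of 0.05 in edgeR's quasi-likelihood test numbered 30 with paclitaxel in EV-proficient cells (27 higher, 3 lower) against a background of 58.2% of all genes, and 34 in EV-deficient cells (21 higher, 13 lower) against 62.9%. Between EV labels 20 passed under DMSO (16 higher and 4 lower in EV-deficient cells) against 23.0%, and 23 under paclitaxel (7 higher, 16 lower) against 37.8%. The interaction passed for 26 (5 higher, 21 lower) against 40.7%, and the averaged paclitaxel effect for 36 (29 higher, 7 lower) against 68.4%. As shares of the 50 these are 60%, 68%, 40%, 46%, 52% and 72%. The median log2 differences of the 50 genes in the same 6 contrasts were 0.60, 0.20, 0.25, -0.17, -0.34 and 0.45, beside 0.05, 0.07, 0.04, -0.00, -0.04 and 0.07 for the whole set of tested genes.

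Between the EV labels 15 of the 50 passed under both treatments, and in all 15 the sign was opposite. Of these, 12 were higher in EV-deficient cells under DMSO and lower under paclitaxel, the reverse of the members, and 3, Shox2 among them, had the members' order of signs. Over all tested genes 2834 passed under both treatments, and 2722 of them had opposite signs and 112 the same sign. A change of sign was thus the usual pattern of these libraries. Taking every library, 1 of the 50 crossed like the members and 6 crossed in the opposite order (Lmo4, Ebf1, Prrx1, Sox2, Klf4 and Grhl2).

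**Figure D3:**
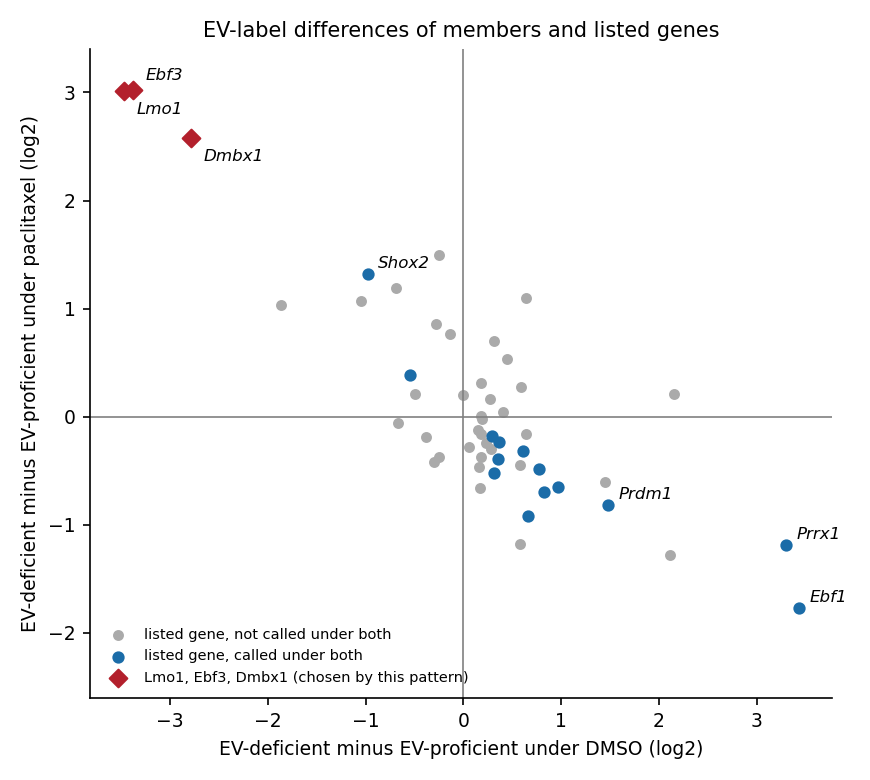
Difference between EV-deficient and EV-proficient cells (log2) under DMSO (horizontal axis) and under paclitaxel (vertical axis) for tested genes of the 5 lists and for Lmo1, Ebf3 and Dmbx1; 1 listed gene with few counts is left out. Genes past the threshold under both treatments (blue) lie to the upper left and lower right of the crossing lines, with Ebf1 (3.43, -1.77) and Prrx1 (3.30, -1.19) farthest to the lower right and the 3 members (red, selected for this pattern) at the upper left.

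In the EBF family, Ebf1 ran against Ebf3. Ebf1, the founding member and a regulator of B cells and fat cells, had 8.42, 6.94 and 8.22 CPM in the EV-deficient DMSO libraries, where Ebf3 was low, and 0.609, 0.527 and 1.08 CPM in the EV-proficient DMSO libraries. Under paclitaxel it had 1.98, 1.67 and 2.19 CPM in EV-proficient and 0.0932, 0.260 and 1.26 CPM in EV-deficient libraries. All 6 libraries in which Ebf3 was low therefore had more Ebf1 than any of the other 6, and the EV-deficient paclitaxel group was uneven, with 5, 12 and 77 counts. Ebf1 differed between EV labels by 3.43 ± 0.45 under DMSO (edgeR quasi-likelihood test, Benjamini-Hochberg adjusted p = 5.97e-06) and by -1.77 ± 0.46 under paclitaxel (adjusted p = 0.00421), a value that ranged from -3.47 to -1.28 over the alternatives. Its interaction was -5.20 ± 0.64 (adjusted p = 1.19e-06) and its averaged paclitaxel effect -1.20 ± 0.32 (adjusted p = 0.00249). The rise of Ebf1 with paclitaxel in EV-proficient cells, 1.40 ± 0.47 (adjusted p = 0.0138), did not pass the threshold with DESeq2 or without EV-proficient DMSO replicate 2.

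As a share of the raw counts of both genes, which are not corrected for length and include the Ebf3 counts used in the selection, Ebf3 made up 90.9% to 94.9% in EV-proficient DMSO, 10.1% to 14.6% in EV-deficient DMSO, 25.8% to 51.4% in EV-proficient paclitaxel and 87.8% to 99.0% in EV-deficient paclitaxel libraries. In EV-proficient paclitaxel replicate 3 the counts of the relatives were nearly equal, 57 for Ebf3 and 54 for Ebf1. Ebf4 followed the drug instead of the crossing order. It was near the limit of detection under DMSO, at 0.0727 ± 0.0731 and 0.211 ± 0.0508 CPM, and had 2.90 ± 0.201 and 1.91 ± 0.298 CPM under paclitaxel in EV-proficient and EV-deficient cells (SD, n = 3 each). It rose with paclitaxel under both labels, with an averaged effect of 4.18 ± 0.29 (adjusted p = 3.44e-11, edgeR), and 2 of the EV-proficient DMSO libraries held at most 3 counts. The remaining relative Ebf2 and the cofactors Zfp423 and Zfp521 reached at most 8, 13 and 6 counts and were not tested.

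**Figure D4:**
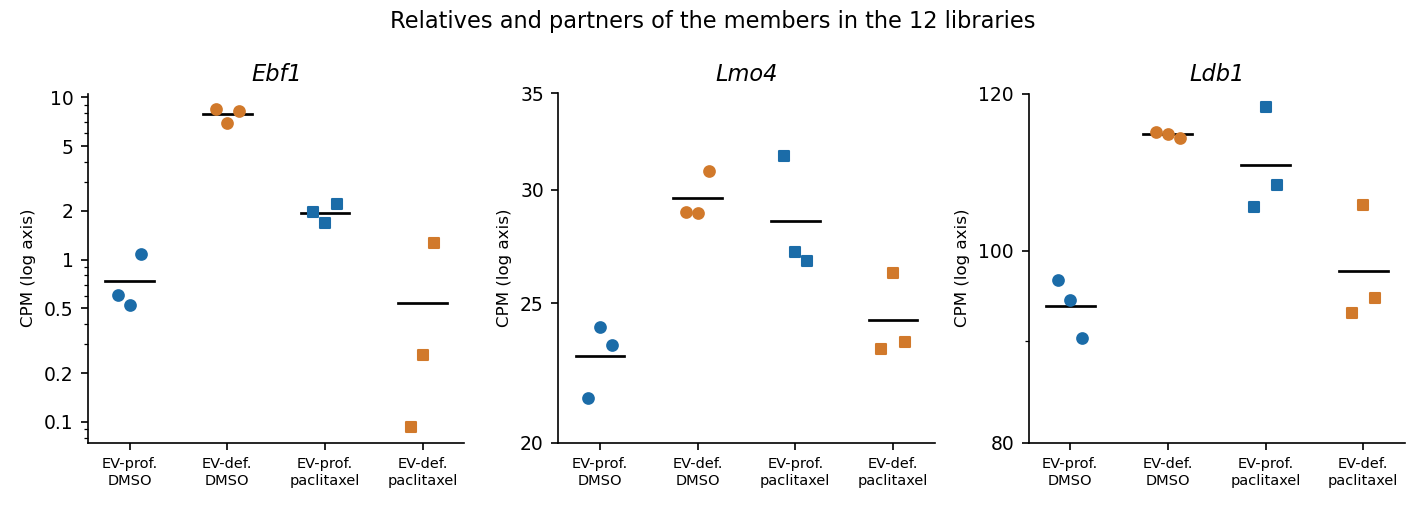
Level of Ebf1, Lmo4 and Ldb1 in CPM (log axes with different ranges) in the 12 libraries; points are libraries (circles DMSO, squares paclitaxel, blue EV-proficient, orange EV-deficient) and lines are group means of 3. Ebf1 spans 0.0932 to 8.42 CPM and is highest in EV-deficient DMSO, while Lmo4 (21.5 to 31.7 CPM) and Ldb1 (90.35 to 118.2 CPM) vary little.

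In the LMO family, Lmo4 crossed in the opposite order to Lmo1 by a small amount. LMO4 is the most widely expressed of the LIM-only proteins and also binds LDB1. Its level was 23.0 ± 1.34 CPM in EV-proficient DMSO, 29.6 ± 1.14 in EV-deficient DMSO, 28.5 ± 2.71 in EV-proficient paclitaxel and 24.3 ± 1.67 in EV-deficient paclitaxel cultures (SD, n = 3 each). The interaction was -0.60 ± 0.12 (adjusted p = 4.04e-04, edgeR), against 6.48 for Lmo1. Its difference between labels under paclitaxel, -0.23 ± 0.09 (adjusted p = 0.0361), missed the threshold under 7 of 20 alternatives, upper-quartile scaling among them. Lmo2 and Lmo3 reached at most 20 and 2 counts and were not tested, so Lmo1 and Lmo4 were the LMO genes with enough reads to test.

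LDB1, the adaptor that LMO proteins need, was abundant throughout. Ldb1 had 93.8 ± 3.21, 114.4 ± 0.380, 110.4 ± 6.85 and 97.7 ± 6.73 CPM in EV-proficient DMSO, EV-deficient DMSO, EV-proficient paclitaxel and EV-deficient paclitaxel cultures (SD, n = 3 each). Its interaction was -0.46 ± 0.09 (adjusted p = 2.86e-04, edgeR), and its difference between labels under paclitaxel, -0.18 ± 0.06 (adjusted p = 0.0337), also missed the threshold under 7 of 20 alternatives. Ldb2 reached at most 5 counts.

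Of the 12 tested genes of the LMO list, 7 passed with paclitaxel in EV-proficient cells (all higher), 8 in EV-deficient cells (4 higher, 4 lower), 5 between labels under DMSO (all higher in EV-deficient cells), 6 under paclitaxel (1 higher, 5 lower) and 7 for the interaction (all negative). As shares these are 58.3%, 66.7%, 41.7%, 50% and 58.3%, beside 58.2%, 62.9%, 23.0%, 37.8% and 40.7% of all genes, so those for paclitaxel lay near the background. Of the 3 single-stranded DNA-binding cofactors of LDB1 on the list, the interaction was -0.94 ± 0.12 for Ssbp3 (adjusted p = 2.83e-06) and -0.63 ± 0.16 for Ssbp4 (adjusted p = 0.00245). That of Ssbp2 did not pass (-0.31 ± 0.20, adjusted p = 0.249), and Ssbp2 rose with paclitaxel by 1.03 in EV-proficient (adjusted p = 4.04e-06) and 0.72 in EV-deficient cells (adjusted p = 1.33e-04, edgeR). Also negative were the E-protein genes Tcf3 (-0.83 ± 0.11, adjusted p = 5.55e-06) and Tcf4 (-0.81 ± 0.10, adjusted p = 6.93e-07), whose products pair with TAL1. Tcf12 (-0.34 ± 0.09, adjusted p = 0.00495) did not pass with upper-quartile scaling. Of the classical DNA-binding partners of LMO1 in blood cells, Tal1 reached at most 33 counts and Gata1 8, while Gata2 and Gata3 had at most 116 and 175 counts and no interaction past the threshold (-0.34 ± 0.42 and 0.08 ± 0.35). Gata4, a GATA gene outside the list, crossed like the members, with a gap of 2.87-fold at a mean of 4.93 CPM. It was picked after its values were seen, and the remaining GATA genes are not reported here.

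Among paired-like homeobox genes, the family of Dmbx1, 10 of 26 found had enough reads. Prrx1, a factor of mesenchyme, crossed in the opposite order, with 1.07, 0.646 and 0.937 CPM in EV-proficient DMSO, 8.82, 9.07 and 8.27 in EV-deficient DMSO, 11.8, 9.95 and 10.3 in EV-proficient paclitaxel and 4.49, 4.72 and 4.89 in EV-deficient paclitaxel libraries. Unlike Dmbx1, its 4 groups did not overlap at all, and its averaged paclitaxel effect was 1.35 ± 0.11 (adjusted p = 5.88e-10, edgeR). The interaction of Prrx1 was -4.49 ± 0.22 (adjusted p = 9.75e-13). Shox2, a limb and heart factor, had the sign of the members, with an interaction of 2.30 ± 0.30 (adjusted p = 2.03e-06), though its EV-proficient groups (2.31 ± 0.159 and 1.94 ± 0.467 CPM, SD, n = 3) did not separate. Esx1 had a negative interaction (-1.62 ± 0.23, adjusted p = 9.63e-06). The midbrain factor gene Otx2 reached at most 12 counts and was not tested, and its relative Otx1 was at 13.5 to 19.2 CPM in the group means. Otx1 rose with paclitaxel by 0.50 ± 0.10 in EV-proficient cells (adjusted p = 1.74e-04, edgeR). In EV-deficient cells the difference was 0.03 ± 0.10 (adjusted p = 0.787). Its interaction was -0.47 ± 0.14 (adjusted p = 0.00948) and did not pass with upper-quartile scaling.

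Of 32 neural regulators 10 were tested. None of the 10 crossed like the members, beside 3.24% of all genes, a share at which 10 genes are too few to show a difference. The list does not hold every neural regulator. Outside it, Nkx2-2 and Pax3 crossed like the members, with gaps of 2.13-fold and 2.02-fold, and Bcl11a, described above, had the opposite order. These genes were not picked by the list, so they give no share. The interaction passed for 2 of the 10 (20%), beside 40.7% of all genes, Sox2 at -1.25 (adjusted p = 6.10e-05) and Sox11 at 0.91 (adjusted p = 0.00260, edgeR). Sox2, a progenitor factor that squamous carcinomas also express, crossed in the opposite order with means of 7.04, 12, 10.9 and 7.82 CPM in EV-proficient DMSO, EV-deficient DMSO, EV-proficient paclitaxel and EV-deficient paclitaxel. The proneural genes Neurog1, Neurod1 and Neurod6 reached at most 1 count. Of the 6 neuronal markers, Stmn2, a microtubule-regulating stathmin, crossed like the members. It had 11.4, 11.99 and 13.2 CPM in EV-proficient DMSO, 2.12, 2.06 and 2.30 in EV-deficient DMSO, 3.38, 2.41 and 1.82 in EV-proficient paclitaxel and 20.3, 20.4 and 15.5 in EV-deficient paclitaxel libraries. Its interaction was 5.33 (adjusted p = 1.80e-13, edgeR). The other tested neuronal markers did not cross, and Elavl4 reached at most 6 counts and was not tested. Tubb3, a tubulin gene that many tumours also express, was highest in EV-deficient DMSO (69.4 CPM) and fell with paclitaxel under both labels. The summed level of the 6 neuronal markers was 56.5 to 64.5 CPM in EV-proficient DMSO, 70.2 to 75.95 in EV-deficient DMSO, 26.8 to 30.2 in EV-proficient paclitaxel and 46.3 to 47.8 in EV-deficient paclitaxel. That sum did not follow the members, and its part in their levels was not tested. In bulk RNA, fewer cells that express a gene and less RNA per cell cannot be told apart.

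Of 16 tested regulators of squamous epithelium, the lineage of MOC2, 9 (56.2%) had an interaction past the threshold, 2 positive and 7 negative, beside 40.7% of all genes. Negative interactions were also the more frequent among all genes, with 4318 of 7370, although with upper-quartile scaling the positive share of all calls moved from 41.4% to 53.9%. The median interaction of the 16 was -0.41, beside -0.04 for all genes. Klf4, described above, had an interaction of -1.52 (adjusted p = 8.43e-11, edgeR), and Grhl2, an activator of epithelial junction genes, crossed with it at 42.2, 66.6, 66.3 and 35.01 CPM in the 4 group means and an interaction of -1.58 (adjusted p = 6.95e-10). Prdm1 (-2.29, adjusted p = 2.83e-06), Sox15 (-1.76, adjusted p = 1.59e-04) and Klf5 (-0.83, adjusted p = 7.05e-07) did not cross but had negative interactions. Ehf, an epithelial factor of the ETS family, had a positive interaction of 1.14 (adjusted p = 0.00666). The keratin gene Krt14 had 191.2 CPM in EV-proficient DMSO, 681.5 in EV-deficient DMSO, 190.9 in EV-proficient paclitaxel and 80.04 in EV-deficient paclitaxel, with an interaction of -3.09 (adjusted p = 3.95e-16). The other tested epithelial markers went both ways, with negative interactions for Krt18 (-0.75, adjusted p = 2.96e-06) and Epcam (-0.72, adjusted p = 9.38e-05) and positive ones for Krt8 (0.39, adjusted p = 0.00160) and Cdh1 (0.51, adjusted p = 1.22e-05, edgeR). Trp63, the master regulator of basal squamous cells, reached at most 11 counts and was not tested.

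Genes around the members were mostly different from them. The 5 nearest protein-coding genes on each side of each member make 30, of which 22 were tested. None of the 22 crossed like the members, beside 3.24% of all genes, and 2 crossed in the opposite order (Trim66 near Lmo1 and Ptpre near Ebf3), beside 3.97%. The interaction passed for 11 of the 22 (50%), with 4 positive and 7 negative, beside 40.7% of all genes.

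Ric3, a chaperone of acetylcholine receptors, was the neighbour nearest to Lmo1, at 55.2 kb, and came closest to its pattern. It had 0.853, 1.27 and 0.703 CPM in EV-proficient DMSO, 0.0714, 0.188 and 0.154 in EV-deficient DMSO, 0.870, 0.984 and 0.405 in EV-proficient paclitaxel and 5.24, 5.49 and 4.79 in EV-deficient paclitaxel libraries. EV-deficient DMSO was thus lowest and EV-deficient paclitaxel highest, without overlap with any other group. Its interaction was 5.50 ± 0.49 (adjusted p = 1.04e-08, edgeR), and the label differences were -2.79 under DMSO (adjusted p = 1.53e-05) and 2.71 under paclitaxel (adjusted p = 4.18e-07). The EV-proficient groups overlapped, with a difference of -0.26 with paclitaxel (adjusted p = 0.498), where that of Lmo1 was -3.49. Averaged over labels Ric3 rose by 2.49 (adjusted p = 9.02e-09), where the average of Lmo1 was -0.24.

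Beyond Ric3, the neighbours with the largest interactions were Trim66 (-1.38, adjusted p = 2.84e-04) and St5 (0.96, adjusted p = 1.51e-04) near Lmo1, Ptpre (-0.42, adjusted p = 0.00245) near Ebf3, and Rad54l (-1.14, adjusted p = 1.52e-06) and Faah (1.04, adjusted p = 4.61e-06, edgeR) near Dmbx1. Faah, which breaks down the endocannabinoid anandamide, lies 27.2 kb from Dmbx1 and had 26.04, 27.4 and 29.1 CPM in EV-proficient DMSO, 15.3, 16.1 and 16.5 in EV-deficient DMSO, 16.8, 19.0 and 21.1 in EV-proficient paclitaxel and 21.4, 25.9 and 20.4 in EV-deficient paclitaxel libraries. Its means thus had the order of the members, while its paclitaxel groups overlapped. Mgmt, the gene nearest to Ebf3 on 1 side, reached at most 8 counts, and the nearest on the other side, at 61.1 kb, had an interaction of -0.03.

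**Figure D5:**
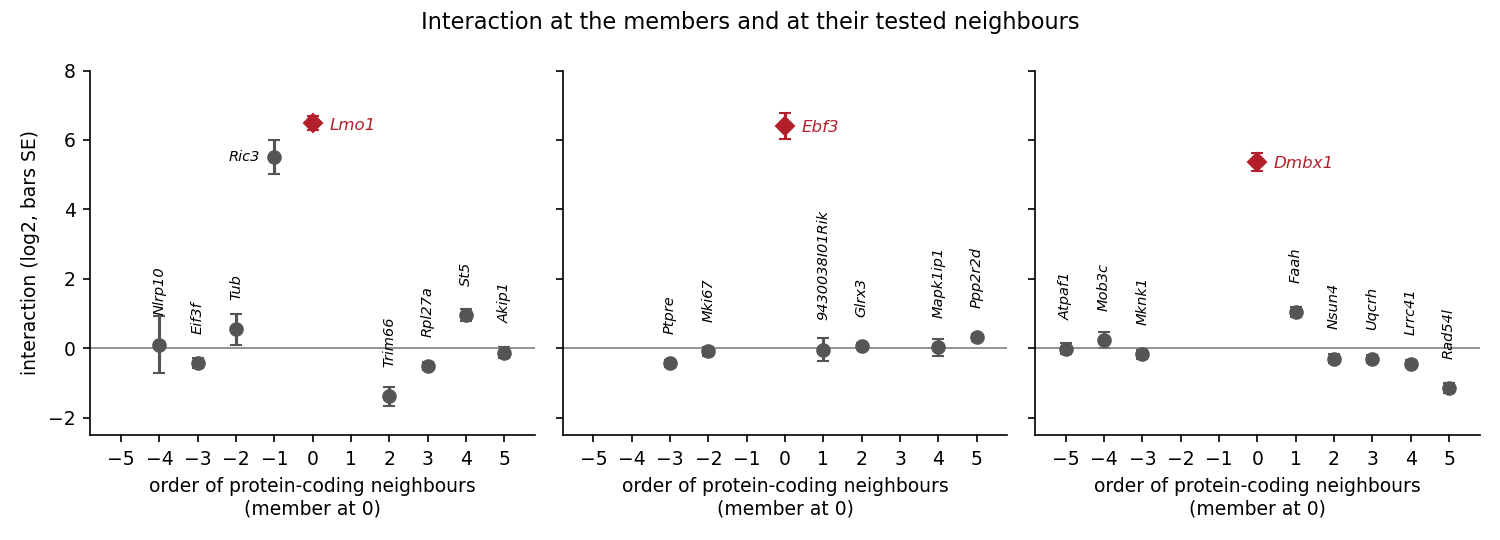
Interaction (log2, bars SE) of Lmo1, Ebf3 and Dmbx1 (red) and of their tested protein-coding neighbours (grey) by order along the chromosome, with negative numbers toward lower coordinates. Only Ric3, at 5.50, comes near a member, and the other neighbours shown lie between -1.38 and 1.04.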

How the data were processed

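Poly(A) RNA from 12 MOC2 cultures was sequenced with a kit that keeps strand, as the labels' protocols say. The values are raw integer counts for each gene in 1 table deposited by the authors. STAR 2.5.0a and the build GRCm38 are named in the submitters' processing notes; the counting program, annotation release and use of strand are not given in the sources used here. Columns were matched to samples by the labels' descriptions, groups came from sample titles, and 0 columns belonged to other samples. The 2 added rows (gfp, dngfr) were left out of library sizes and tests.

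The 3 genes, the gene lists and the markers were chosen with earlier results of these data known. For the 3 genes, group differences are therefore descriptions without p. Tests used edgeR 4.0.16 under R 4.3.3. Low genes were removed with filterByExpr (minimum count 10), trimmed-mean scaling gave factors of 0.890 to 1.15, and 1 quasi-likelihood model with 4 group means fitted to all 12 libraries. P-values were adjusted over all 18108 genes by the Benjamini-Hochberg method, with a threshold of 0.05. The 5 planned comparisons were paclitaxel within each EV label, EV label within each treatment, and the interaction; the paclitaxel effect averaged over labels was added after seeing the data. SE is the log2 difference divided by the square root of F. Log2 CPM for correlations used a prior count of 2. The limit of 3 counts reflects sampling of reads alone, because PCR copies were not told apart by molecular identifiers. The scripts were first tested on simulated data.

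Named genes were the members, for each the 5 most alike and 3 most opposite genes by r, the LMO and EBF lists, up to 6 genes per contrast with the largest changes of each other list, the 5 nearest protein-coding neighbours on each side, and the 2 added rows. Genes such as Hoxb9 beside the members in the ranking, and untested genes named for their role, were picked after their values were seen. The same holds for Gata4, Nkx2-2 and Pax3, which are on none of the lists. Some listed genes are counted but not reported here by name. Positions came from a GENCODE annotation and promoters from RefSeq, both on GRCm38. No pair of replicates agreed within sampling noise (chi-square per degree of freedom 3.35 to 21.2). Same-numbered libraries of different groups did not deviate together (r from -0.08 to 0.10), and the main model did not pair them. This check cannot exclude that same-numbered cultures were grown or handled together. The alternatives tried were upper-quartile and median-of-ratios scaling, omission of the filter, 1 CPM in 3 libraries, DESeq2 1.42.0, limma-voom (limma 3.58.1), a replicate block, only the groups compared, a prior count of 0.5 for correlations, and leaving out each library.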

Additional observations from a re-analysis of the deposited data

Results flagged for a closer look

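The effect of paclitaxel differed between the EV labels, by the interaction in the edgeR model, for the genes that follow (log2, EV-deficient minus EV-proficient). For Lmo1 (6.48), Ebf3 (6.40) and Dmbx1 (5.37) this difference is what they were selected for. Positive differences were also found for Ric3 (5.50), Stmn2 (5.33), Shox2 (2.30), Ehf (1.14), Faah (1.04), St5 (0.96), Sox11 (0.91), Cdh1 (0.51) and Krt8 (0.39). Negative ones were found in the LMO and EBF families and their partners for Ebf1 (-5.20), Ebf4 (-2.05), Ssbp3 (-0.94), Tcf3 (-0.83), Tcf4 (-0.81), Ssbp4 (-0.63), Lmo4 (-0.60), Ldb1 (-0.46) and Tcf12 (-0.34). Among homeobox, neural and squamous regulators they were found for Prrx1 (-4.49), Prdm1 (-2.29), Sox15 (-1.76), Esx1 (-1.62), Grhl2 (-1.58), Klf4 (-1.52), Sox2 (-1.25) and Klf5 (-0.83), and among neighbours and markers for Krt14 (-3.09), Trim66 (-1.38), Rad54l (-1.14), Krt18 (-0.75), Epcam (-0.72) and Ptpre (-0.42). The added dngfr sequence, which enters no gene test, reached 12.4 CPM in its highest library, EV-deficient paclitaxel 3.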

How the results depend on the processing

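The libraries in which Lmo1, Ebf3 and Dmbx1 were high and low did not overlap in any of the 16 settings counted. The members were selected for this separation, and 12 of the 16 settings only left out a library. This outcome was therefore largely fixed in advance and is given as a description. None of the members' differences in the 5 planned contrasts, which the selection also used, changed sign under any alternative. With all libraries kept, each of these differences moved by less than the spread between replicates. Leaving out 1 library at a time, Lmo1 with paclitaxel in EV-proficient cells ranged from -3.69 to -3.44. For Ebf3 the same difference ranged from -3.69 to -2.77, that between labels under paclitaxel from 2.61 to 3.52, and the interaction from 6.02 to 6.94, with the outer values on 1 or the other side reached without EV-proficient paclitaxel replicate 3 or 2. The within-group correlations changed sign when 1 library was left out, from -0.67 to 0.15 for Lmo1 and Ebf3, from -0.40 to 0.31 for Lmo1 and Dmbx1, and from -0.86 to 0.21 for Ebf3 and Dmbx1. The values 0.15, -0.40 and 0.21 were those without EV-proficient paclitaxel replicate 2 for the first pair and replicate 3 for the others. With a replicate block the correlation of Lmo1 and Dmbx1 was -0.05, those of the other pairs were -0.27 and -0.56, and 10520, 11363, 4258, 6858 and 7386 genes passed in the 5 planned contrasts, beside 10538, 11396, 4162, 6853 and 7370 without it.

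Of 307 calls on genes of the lists, neighbours and markers, 232 held under every alternative run and 75 were lost under at least 1. The averaged paclitaxel effect of Tcf12 (-0.11) changed sign with upper-quartile scaling, to 0.02, and so did the effect of paclitaxel on Cdh1 in EV-deficient cells (-0.13), to 0.05. That scaling moved the median log2 difference of all genes with paclitaxel in EV-deficient cells from 0.07 to 0.26, and the share of calls that were higher from 51.5% to 63.4%. For labels under paclitaxel that share moved from 42.4% to 58.2%, and for the interaction from 41.4% to 53.9%. With it Lmo4 and Ldb1 no longer passed with paclitaxel in EV-deficient cells (-0.10 and -0.05) or between labels under paclitaxel (-0.14 and -0.08). Only 3 cultures a group limit all errors, and genes at a few counts, such as Lmo2, Ebf2 and Zfp423, are below what this depth can compare.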
